A study of Mus musculus with 6 samples.

Results

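The integrin and laminin genes of the mouse were followed in cerebellar RNA from 6-day-old pups with and without a conditional knockout of SnoN, the transcriptional co-repressor encoded by Skil. Members were all genes whose symbol in the deposited count table was that of an integrin α subunit, an integrin β subunit or a laminin α, β or γ chain. The rule found 37 genes among the 41228 entries of the table, each listed once, of which 26 were integrin subunits and 11 were laminin chains. The measured values played no role in that rule. Total RNA of the cerebellum had been sequenced in 6 libraries, 3 from wild type mice and 3 from SnoN cKO (conditional knockout) mice. All libraries came from the C57BL/6 strain at 6 days of age, each genotype had 1 library labelled female and 2 labelled male, and the labels name no treatment. The sources used here name neither the Cre line and its promoter nor the cells in which SnoN is deleted.

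Integrins are cell surface receptors built from an α and a β subunit, and the pairing decides which matrix protein or cell surface ligand is bound. Laminins are large matrix proteins assembled from an α, a β and a γ chain, and they form the sheet onto which collagen IV, nidogen and perlecan are added to make a basement membrane. In the early postnatal cerebellum a laminin-rich basement membrane lies under the meninges. The endfeet of Bergmann glia attach to it from below, and the dividing granule neuron precursors of the external granular layer lie just beneath it. The β1 integrins α3β1, α6β1 and α7β1, together with dystroglycan, are the main laminin receptors of neural cells.

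The libraries held 12605870 to 17757711 counts, of which the members took 0.153 to 0.163%. Cerebellar identity markers such as En2 and Zic1 were detected at a summed 3117 to 3491 CPM (counts per 1000000 counts, after scaling between libraries) in wild type and 3320 to 3571 CPM in SnoN cKO, and none of the 8 was at 0. Some features of single libraries stood apart. The choroid plexus markers summed to 198 CPM in SnoN cKO 2 and to 2177 to 4030 CPM in the other 5 libraries. The Gm42418 entry, which overlaps ribosomal RNA sequence, took 3.75% of counts in SnoN cKO 3, 0.692% in wild type 2 and 0.0512 to 0.066% elsewhere. Xist and Y-linked counts went against the labelled sex in 2 libraries, SnoN cKO 1 and SnoN cKO 2, both labelled SnoN cKO, and whether their labels were exchanged was not tested. Of 18 markers of brainstem and midbrain, 10 had a mean under 1 CPM, and only 10 had enough counts to be tested. All 10 tested were lower in SnoN cKO, beside 51.0% of all genes tested. Their median log2 difference was -1.09, and none passed the adjusted test. The sum of the 18, mostly Slc6a5, was 63.3 to 83.7 CPM in wild type and 42.6 to 66.4 CPM in SnoN cKO. Hoxa5, the marker with the largest difference, was at 1.01 to 1.86 CPM in wild type and 0 to 0.352 CPM in SnoN cKO. It reached the level needed for testing, about 0.727 CPM, only in wild type. A marker tested on that ground can only come out lower in SnoN cKO, so the count of 10 is partly set by the filter. The part of such tissue in the members' values was not tested. For Skil itself the wild type libraries gave 89.5, 87.5 and 88.9 CPM, against 76.0, 74.7 and 77.5 CPM for SnoN cKO. Every SnoN cKO library was below every wild type library for Skil, but the difference of -0.22 on the log2 scale (standard error 0.04) had an adjusted p of 0.637 in edgeR's quasi-likelihood test. Counts over a whole gene need not reveal the loss of a few exons, so this checks the genotype labels only in part.

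Of the 37 members, 35 had enough counts to be tested, which required at least about 0.727 CPM in 3 or more libraries. Itgb6 and Itgad did not. Among the 35, 34 were over that level in all 6 libraries, and Itgae was over it in all wild type libraries and in 2 of 3 SnoN cKO libraries. Mean levels spanned a wide range. Itgb1, Lamc1, Lamb1 and Itgb8 were at 100 CPM or more, 17 members lay between 10 and 100 CPM, 14 between 1 and 10 CPM, and Itgb6 and Itgad were under 1 CPM. All 5 laminin α chains, Lamb1, Lamb2, Lamc1 and Lamc3 were in the upper bands, as were most β1 partners, whereas the leukocyte integrins were all under 10 CPM.

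**Figure D1:**
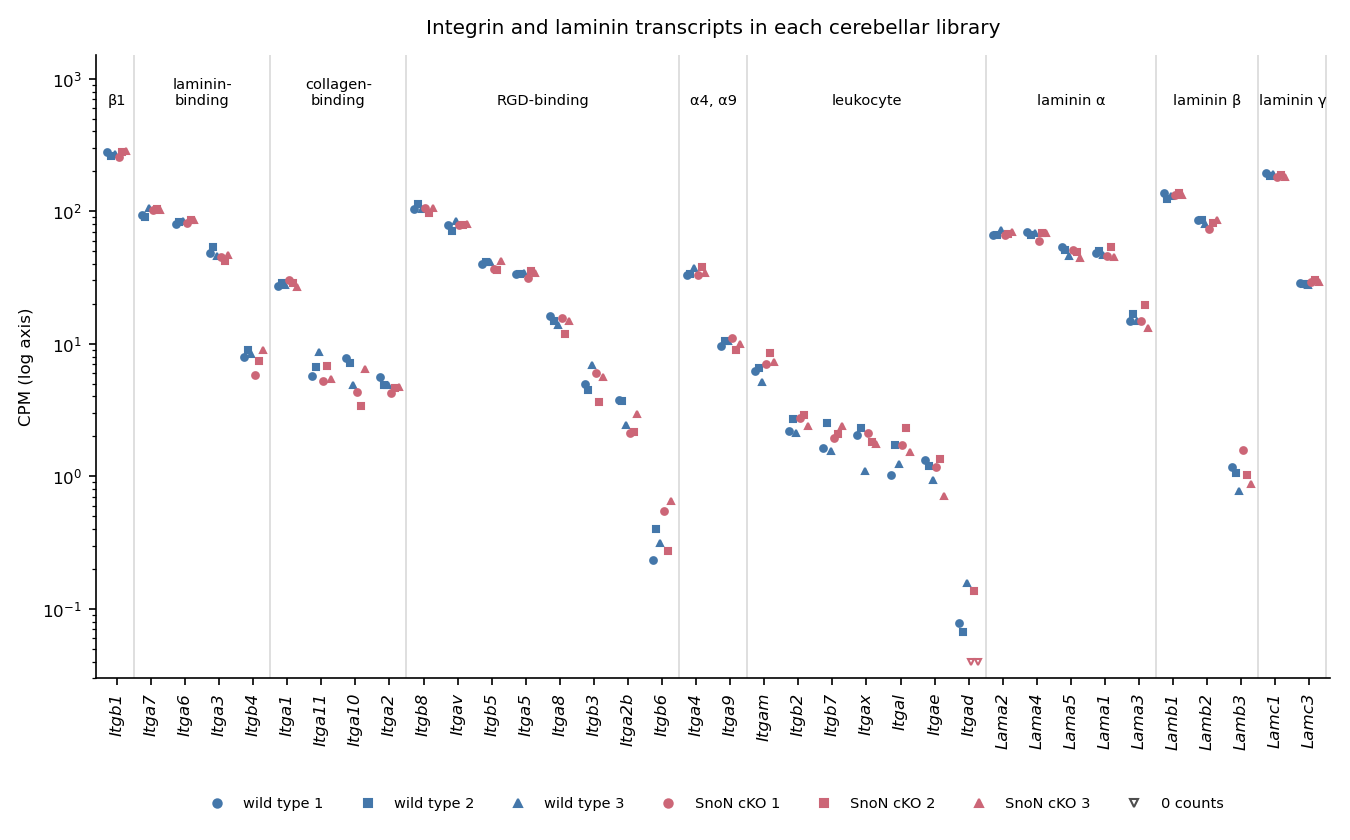
CPM of 36 of the 37 members (log axis) in each of the 6 libraries, grouped by ligand class or chain, with wild type in blue and SnoN cKO in red; symbols mark the replicate and open triangles mark 0 counts. Points of the 2 genotypes lie on top of each other for the abundant members, from Itgb1 at 258 to 282 CPM downward, and scatter more widely for members under 10 CPM.

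No integrin or laminin passed the test between the genotypes. The adjusted p was at least 0.637 for every member in edgeR's quasi-likelihood test with Benjamini-Hochberg adjustment over all 15457 genes tested, and 0% of those genes passed a threshold of 0.05. At an unadjusted p under 0.05, 1 of 35 members (Itgam) was called, which is 2.86%, against 7.68% of all genes tested. Every SnoN cKO library was above every wild type library for 2 members (5.71%: Itgam and Lamc3), against 6.95% of all genes. Every SnoN cKO library was below every wild type library for 1 member (2.86%: Itga2), against 6.73% of all genes. The members' shares were thus under the background in each count of this fit. For the unadjusted p this did not hold when wild type 3 or SnoN cKO 3 was left out. Log2 differences, SnoN cKO minus wild type, were positive for 15 members and negative for 20, with a median of -0.01 beside 0.00 for all genes.

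How closely the data bound a difference depended on the level of the gene. For the 21 members of at least 10 CPM the log2 differences lay within 0.13 of 0 and their standard errors were 0.04 to 0.14. For 20 of these 21 the 95% interval excluded a rise or a fall of 25%, the exception being Lama3 with an interval of -0.28 to 0.36. For the 14 tested members under 10 CPM the differences ran from -0.48 (Itga10) to 0.45 (Itgal), with standard errors of 0.11 to 0.32, and no interval was that narrow. A rise and a fall of 25% could not both be excluded for any of those 14 genes with these libraries. With 3 libraries against 3, an exact permutation test of a single gene cannot give a two-sided p below 0.1. In whole tissue, fewer cells of a type and less RNA per cell cannot be told apart.

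**Figure D2:**
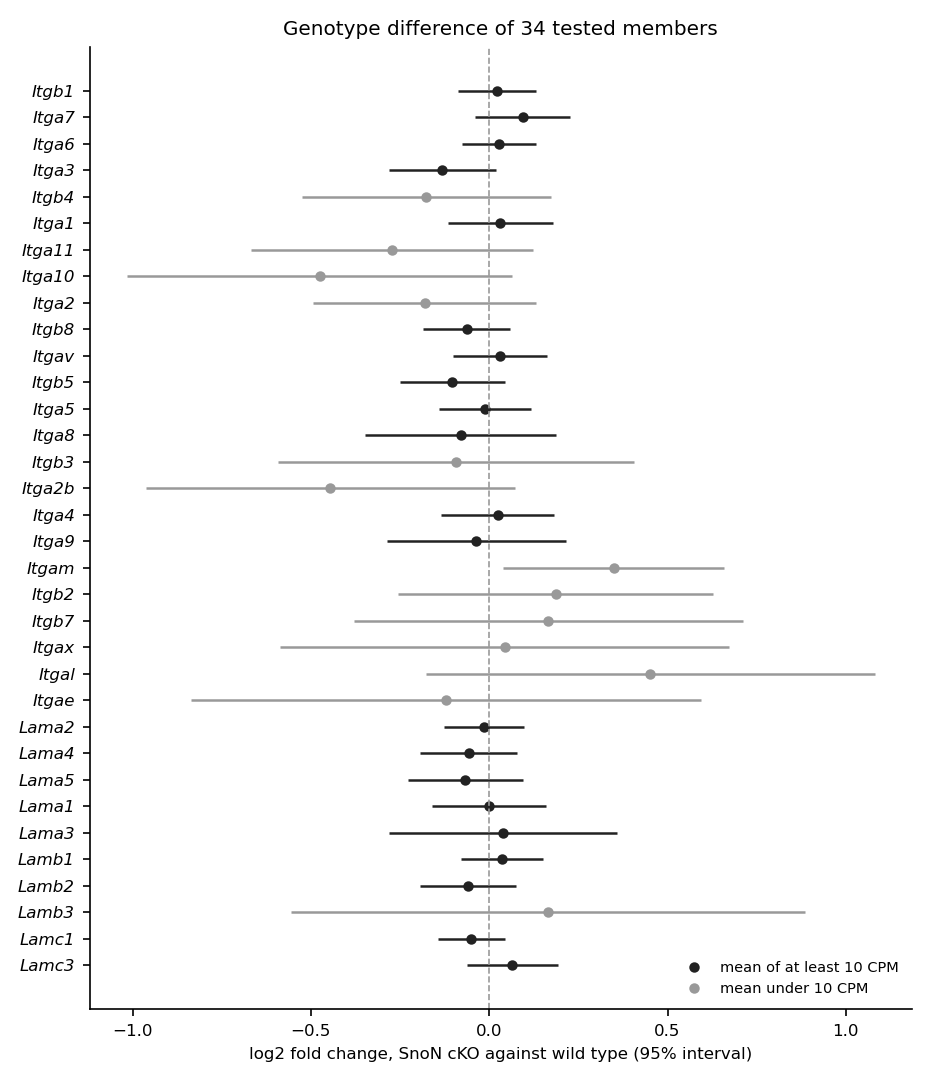
Log2 fold change of SnoN cKO against wild type for 34 of the 35 tested members, with approximate 95% intervals derived from edgeR's F statistic. Black marks members with a mean of at least 10 CPM and grey those under 10 CPM. The black points lie within 0.13 of 0, the grey ones spread from -0.48 to 0.45, and the interval of Itgam, 0.04 to 0.66, is the only one that leaves out 0.

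Itgb1, the β1 subunit shared by the laminin, collagen and most fibronectin receptors of neural cells, was the most abundant member. Its level was 279, 259 and 269 CPM in wild type and 258, 278 and 282 CPM in SnoN cKO. The 3 libraries of each genotype covered the same range. The log2 difference was 0.02 (95% interval -0.09 to 0.13), and the coefficient of variation over all 6 libraries was 3.87%. Divided by the length of the longest annotated transcript, Itgb1 stood at 71.0 ± 2.75 CPM per kilobase (SD, n = 6) and was the only member whose 6 libraries were all above those of every other member. On that scale it made up 70.8 ± 1.57% (SD, n = 3) of all β subunit transcripts in wild type and 72.1 ± 1.30% in SnoN cKO.

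The laminin-binding Itga7 and Itga6 were the most abundant α subunits. Itga7, which pairs with β1 and is best known from muscle, stood at 93.7, 90.4 and 106 CPM in wild type and 101, 105 and 103 CPM in SnoN cKO. Itga6, which pairs with β1 or β4, stood at 79.6, 83.4 and 84.9 CPM in wild type and 81.2, 86.0 and 85.2 CPM in SnoN cKO. For both genes the ranges of the genotypes overlapped, and the log2 differences were 0.09 (SE 0.06) and 0.03 (SE 0.05). Itga3, whose product pairs with β1 and binds laminins that carry the α5 chain, was at 48.3, 53.3 and 45.8 CPM in wild type and 45.5, 42.4 and 46.7 CPM in SnoN cKO. Its difference of -0.13 (SE 0.07, 95% interval -0.28 to 0.02) was the farthest from 0 among members of at least 10 CPM, and SnoN cKO 3 lay within the wild type range. Itgb4, the hemidesmosome subunit that pairs only with α6, was far lower at 5.80 to 8.97 CPM over the 6 libraries, with its lowest value in SnoN cKO 1.

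Per kilobase of longest transcript, Itga7 took 27.0 ± 1.62% (SD, n = 3) of all α subunit transcripts in wild type and 28.6 ± 0.265% in SnoN cKO, and Itga6 took 21.6 ± 0.45% and 21.8 ± 0.376%. Itga3 followed Itgav, with 11.4 ± 1.08% and 10.3 ± 0.557%. These shares depend on which transcripts the cells use. When the length of all annotated exonic bases of the gene was used instead, the share of Itga7 became 20.9% and 22.4% and that of Itga6 became 16.0% and 16.4%, while Itga3 took 15.1% and 13.8%. The members' order changed by at most 6 places between the length definitions, Itga7 moving from the second place to the fifth and Itgb1 keeping the first.

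The collagen-binding subunits were scarcer, and Itga1, whose α1β1 receptor favours collagen IV of basement membranes, led them. Itga1 was at 27.4, 28.7 and 27.6 CPM in wild type and 30.3, 28.5 and 26.9 CPM in SnoN cKO, a log2 difference of 0.03 (SE 0.07). Itga2, the α subunit of a fibrillar collagen receptor, was at 5.63, 4.92 and 4.91 CPM in wild type and 4.23, 4.60 and 4.75 CPM in SnoN cKO. The genotypes did not overlap for Itga2, but the lowest wild type and the highest SnoN cKO library lay close together, and the difference of -0.18 (SE 0.14) had an unadjusted p of 0.226 in edgeR. Itga11, a fibroblast collagen receptor subunit, ranged from 5.25 to 8.73 CPM, with its highest value in wild type 3 and a difference of -0.27 (SE 0.18).

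Itga10, known as a cartilage collagen receptor subunit, varied most among the tested members, with a coefficient of variation of 30.2%. Its values were 7.75, 7.11 and 4.91 CPM in wild type and 4.31, 3.38 and 6.39 CPM in SnoN cKO. Wild type 3 was low within its group and SnoN cKO 3 was high within its own, so the genotypes overlapped. The difference of -0.48 (SE 0.24, 95% interval -1.02 to 0.07) moved to -0.78 without SnoN cKO 3 and to -0.05 when SnoN cKO 1 and 2 were both left out. The reference annotation shares 33.5% of the exonic bases of Itga10 with the same-strand gene Gm42957, so its counts are uncertain. Markers of meninges and fibroblasts were lower in SnoN cKO for 14 of 14 genes, beside 51.0% of all genes tested. Their log2 differences ran from -0.50 (Ogn) to -0.01 (Col3a1), with a median of -0.11. Their sums overlapped, at 1883 to 2223 CPM in wild type and 1702 to 2051 CPM in SnoN cKO, with no marker at 0. None of the 14 passed the adjusted test, and the part of these cells in the collagen receptor values was not tested.

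Subunits of receptors that bind the RGD tripeptide of fibronectin, vitronectin and latent TGFβ were led by Itgb8 and Itgav. Itgb8, which pairs with αv on glial and neural progenitor cells to activate latent TGFβ, was at 104, 113 and 104 CPM in wild type and 106, 96.8 and 106 CPM in SnoN cKO. Itgav was at 78.0, 71.3 and 83.9 CPM in wild type and 79.3, 78.9 and 79.8 CPM in SnoN cKO. Neither genotype stood above the other for these partners, whose log2 differences were -0.06 (SE 0.05) and 0.03 (SE 0.06). Itgb5, a vitronectin receptor subunit that also pairs with αv, was at 39.7, 41.6 and 41.6 CPM in wild type and 36.4, 36.1 and 41.8 CPM in SnoN cKO. SnoN cKO 1 and 2 lay below wild type for Itgb5 and SnoN cKO 3 lay above it, with a difference of -0.10 (SE 0.07). Per kilobase, Itgb8 (12.5 ± 0.613, SD, n = 6) and Itgb5 (12.05 ± 0.809) overlapped. With exonic length the order turned, to 9.49 for Itgb8 and 11.1 for Itgb5, so it is not settled by these data.

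Itga5, the α subunit of the classical fibronectin receptor, was among the least variable members at 33.6, 33.5 and 34.5 CPM in wild type and 31.6, 35.3 and 33.9 CPM in SnoN cKO. Itga8, a nephronectin receptor subunit, ranged from 11.9 to 16.1 CPM and was lowest in SnoN cKO 2. The platelet subunits were low. Itgb3 ranged from 3.65 to 6.94 CPM, and Itga2b, the αIIb partner of β3 on platelets, was at 3.76, 3.72 and 2.42 CPM in wild type and 2.11, 2.17 and 2.93 CPM in SnoN cKO. As with Itga10, wild type 3 lay low and SnoN cKO 3 high for Itga2b, and the difference of -0.45 (SE 0.23) ran from -0.62 to -0.18 over the alternatives tried. The platelet and erythroid markers measured summed to 24.2 to 47.7 CPM in wild type and 23.6 to 41.6 CPM in SnoN cKO, none of them was at 0 in all libraries, and their part in the Itga2b values was not tested. Itgb6, an epithelial subunit, had 3 to 11 counts per library and was not tested.

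The α4 and α9 subunits bind VCAM-1, osteopontin, tenascin-C and an alternatively spliced stretch of fibronectin. Itga4 was at 32.8, 33.9 and 37.3 CPM in wild type and 33.1, 38.2 and 34.4 CPM in SnoN cKO. The annotation shares 8.04% of its exonic bases with the opposite-strand gene Cerkl, and the library kit does not record strand. Itga9 ranged from 8.93 to 10.96 CPM. The genotypes overlapped for both genes, with log2 differences of 0.02 (SE 0.07) and -0.04 (SE 0.11).

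Among the leukocyte integrins the difference was positive for 5 of the 6 tested, beside 49.0% of all genes. Their median was 0.18, and none passed the adjusted test. Itgam, the CD11b subunit of the complement receptor on microglia and myeloid cells, was at 6.18, 6.58 and 5.14 CPM in wild type and 7.05, 8.46 and 7.33 CPM in SnoN cKO. All SnoN cKO libraries were above all wild type libraries, with wild type 3 the lowest and SnoN cKO 2 the highest. The log2 difference was 0.35 (SE 0.14, 95% interval 0.04 to 0.66), with an unadjusted p of 0.0315 and an adjusted p of 0.637 in edgeR. Over the alternatives tried the difference ran from 0.25 to 0.43 and the adjusted p from 0.494 to 0.999. The annotation shares 68.7% of the exonic bases of Itgam with the same-strand gene Gm49368, so how the authors' counting divided those reads is uncertain.

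Itgb2, the β2 partner of Itgam, was at 2.19, 2.72 and 2.10 CPM in wild type and 2.74, 2.91 and 2.40 CPM in SnoN cKO, and the genotypes overlapped. Its difference of 0.19 (SE 0.20) did not differ from 0 beyond its error. Itgal, the CD11a subunit of lymphocytes and myeloid cells, was at 1.02, 1.73 and 1.25 CPM in wild type and 1.72, 2.30 and 1.53 CPM in SnoN cKO, resting on 13 to 34 counts per library. Itgax, the CD11c subunit, ranged from 1.09 to 2.32 CPM, Itgb7, the β subunit of gut-homing lymphocytes, from 1.56 to 2.52 CPM, and Itgae, its αE partner, from 0.704 to 1.35 CPM. Itgad had 0 to 2 counts per library and was not tested.

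Microglia markers were positive for 11 of 12 genes, beside 49.0% of all genes tested, and none was at 0. Such uneven counts were not particular to this list. Differences were positive for 9 of 10 Purkinje cell, 8 of 10 granule neuron precursor and 7 of 8 cerebellar identity markers. They were positive for 0 of 12 choroid plexus and ependyma markers. The microglia marker sums were 210.1 to 237 CPM in wild type and 221 to 249 CPM in SnoN cKO. These sums overlapped between the genotypes, the median log2 difference of the 12 markers was 0.06, and no marker passed the adjusted test. Tyrobp, C1qb and Fcrls, 3 of the 12, had every SnoN cKO library above every wild type library, as Itgam and 6.95% of all genes tested did. Tyrobp, a signalling adaptor of myeloid receptors, was at 6.42, 6.71 and 6.39 CPM in wild type and 7.99, 7.71 and 8.39 CPM in SnoN cKO. C1qb, a chain of complement C1q, was at 17.6, 17.2 and 16.6 CPM in wild type and 18.6, 22.5 and 19.5 CPM in SnoN cKO. The log2 differences were 0.30 (SE 0.11) for Tyrobp, 0.24 (SE 0.09) for C1qb and 0.11 (SE 0.07) for Fcrls, beside 0.35 (SE 0.14) for Itgam, and these 3 markers were picked out after their values were seen. The other markers of the list ran from -0.11 (Tmem119) to 0.08 (C1qa), with C1qc, another C1q chain, at 0.01 (SE 0.09). The 12 markers of other leukocytes were each under 1 CPM and summed to 1.41 to 2.99 CPM in wild type and 2.04 to 4.33 CPM in SnoN cKO. Ly6g and Nkg7, markers of neutrophils and cytotoxic lymphocytes, were at 0 in all 6 libraries. The part of microglia and other leukocytes in the Itgam values was not tested.

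**Figure D3:**
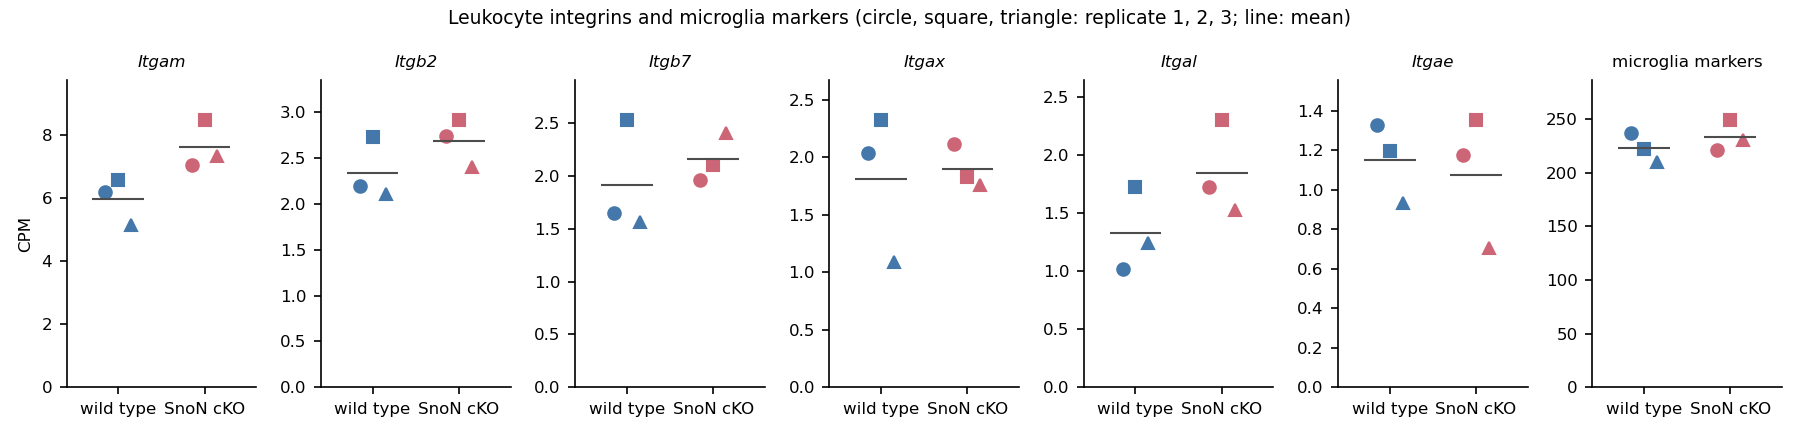
CPM of the 6 tested leukocyte integrins and the summed CPM of 12 microglia markers in each library, by genotype, with a line at the mean of 3 libraries; each panel has its own axis from 0. Of these panels Itgam alone shows no overlap, 5.14 to 6.58 CPM in wild type and 7.05 to 8.46 CPM in SnoN cKO, while the microglia marker sums overlap.

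All 5 laminin α chains were expressed, and none differed between the genotypes beyond its error. Lama4, the α4 chain of vascular basement membranes, was at 69.6, 66.6 and 68.6 CPM in wild type and 59.4, 68.7 and 68.4 CPM in SnoN cKO. Lama2, the α2 chain found in muscle and in glial and vascular basement membranes, was at 66.4, 65.8 and 72.2 CPM in wild type and 66.3, 66.7 and 69.3 CPM in SnoN cKO. SnoN cKO 1 was low for Lama4, and the other 5 libraries lay close together. Lama1, an early embryonic chain that persists in the pial basement membrane, was at 48.0, 50.4 and 46.4 CPM in wild type and 45.7, 53.5 and 45.5 CPM in SnoN cKO. Lama5, the broadly expressed α5 chain, was at 53.9, 51.1 and 46.3 CPM in wild type and 50.8, 49.5 and 44.3 CPM in SnoN cKO. Lama3, the epithelial α3 chain, ranged from 13.1 to 19.7 CPM, with both extremes in SnoN cKO. Log2 differences of the 5 chains ran from -0.07 to 0.04.

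Per kilobase of longest transcript, Lama4 made up 38.5 ± 0.684% (SD, n = 3) of laminin α transcripts in wild type and 37.8 ± 1.97% in SnoN cKO. Lama2 made up 24.2 ± 1.35% and 24.5 ± 1.29%, Lama1 17.3 ± 0.753% and 17.6 ± 0.939%, and Lama5 15.1 ± 1.06% and 14.8 ± 1.35%. Each share moved between the genotypes by less than the spread within one of them. With exonic length the lead of Lama4 shrank to 27.3% and 26.8%, Lama1 and Lama5 exceeded Lama2, and the shares of the genotypes still lay side by side.

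Among β chains, Lamb1, the partner in most laminins of the developing brain, was at 138, 123 and 130.4 CPM in wild type and 133, 136 and 132 CPM in SnoN cKO. Lamb2, the β2 chain of synaptic, pial and retinal basement membranes, was at 85.3, 86.3 and 79.9 CPM in wild type and 73.9, 81.4 and 85.8 CPM in SnoN cKO. SnoN cKO 1 was lowest for Lamb2, but the genotypes overlapped and the differences were 0.03 (SE 0.05) for Lamb1 and -0.06 (SE 0.06) for Lamb2. Per kilobase of longest transcript, Lamb1 was 59.9 ± 1.88% (SD, n = 3) of β chain transcripts in wild type and 61.4 ± 1.71% in SnoN cKO. With exonic length the chains drew level, Lamb1 at 48.5% and 50.2% and Lamb2 at 50.9% and 49.2%, so their order per length is not settled by these data. Lamb3, the β chain of epithelial laminin, was at 0.779 to 1.57 CPM and rested on 10 to 20 counts per library.

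Lamc1, the γ1 chain of most laminins, was the second most abundant member in CPM, at 195, 183 and 191 CPM in wild type and 179.7, 187 and 182 CPM in SnoN cKO. Lamc3, the γ3 chain, was at 28.8, 28.2 and 27.7 CPM in wild type and 29.4, 30.2 and 29.1 CPM in SnoN cKO. All SnoN cKO libraries were above all wild type libraries for Lamc3, but its difference was 0.06 (SE 0.06) with an unadjusted p of 0.286 in edgeR, and its coefficient of variation of 2.97% was the lowest of the 35. Per kilobase of longest transcript, Lamc1 stood at 24.5 ± 0.77 CPM (SD, n = 6) and Lamc3 at 4.92 ± 0.146 CPM, and their libraries did not overlap.

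The summed length-scaled levels of the laminin α and β chains and of the integrin subunits did not separate the genotypes. Laminin α chains summed to 29.3 ± 0.231 CPM per kilobase (SD, n = 3) in wild type and 28.6 ± 1.39 in SnoN cKO. Laminin β chains summed to 37.6 ± 1.41 and 37.6 ± 1.02. Integrin β subunits summed to 99.6 ± 1.57 in wild type and 99.2 ± 4.18 in SnoN cKO, and α subunits to 88.8 ± 2.2 and 89.5 ± 1.26. Over all 37 members, 26 of 36 neighbours in the length-scaled order had overlapping libraries, so the order within those pairs is not resolved. Below Itgb1, Itga7, Lamc1 and Lamb1 formed such a run at 24.8, 24.5 and 22.8 CPM per kilobase, and Itga6 at 19.3 CPM per kilobase lay below all their libraries.

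**Figure D4:**
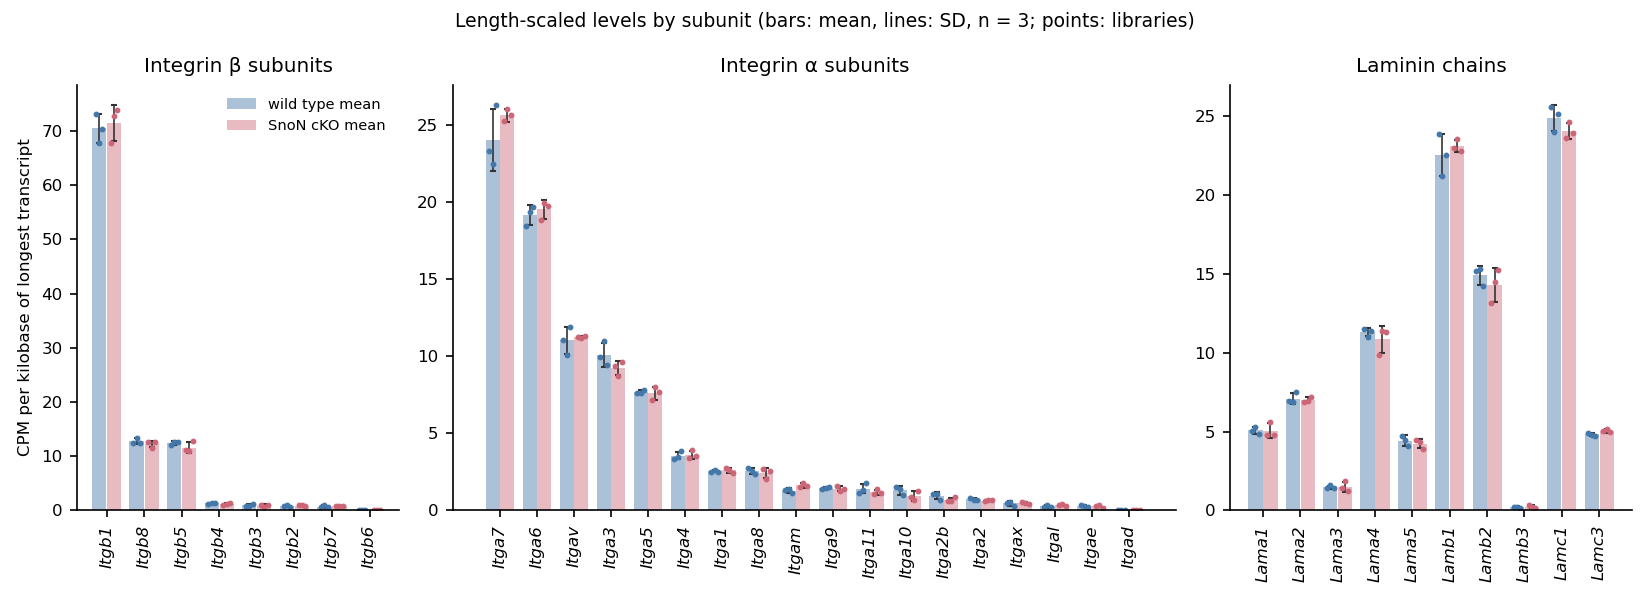
CPM per kilobase of longest annotated transcript for integrin β subunits, integrin α subunits and laminin chains; bars are genotype means, lines are SD with n = 3, and points are libraries. Itgb1 stands at 71.0 CPM per kilobase over the 6 libraries, above Itga7, Lamc1 and Lamb1, and the bars of the genotypes are level for the abundant subunits.

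The other genes of the pathway were read from 5 lists in the same fit, and no gene of any list passed the adjusted test. Among 35 intracellular integrin partners tested, 23 differences were positive and 12 negative (median 0.03), beside 49.0% positive and a median of 0.00 over all genes tested. At an unadjusted p under 0.05, 0 were higher (0%) and 2 lower (5.71%), against 3.21% higher and 4.47% lower among all genes. Tln1 and Ptk2, which encode talin-1 and the focal adhesion kinase, were at 147 to 156 CPM and 143 to 165 CPM, with differences of 0.04 (SE 0.04) and 0.05 (SE 0.06). Tln2, the talin-2 gene, was at 131, 132 and 121 CPM in wild type and 117, 112 and 113 CPM in SnoN cKO. The genotypes did not overlap for Tln2, and the difference of -0.17 (SE 0.05) had an unadjusted p of 0.00661 and an adjusted p of 0.637 in edgeR. Ptk2b, which encodes a kinase related to Ptk2, was at 3.91, 5.65 and 4.21 CPM in wild type and 3.45, 2.30 and 3.52 CPM in SnoN cKO. The genotypes did not overlap for Ptk2b either. Its difference of -0.58 (SE 0.22) had an unadjusted p of 0.0236 and an adjusted p of 0.637 in edgeR. Tns2, a focal adhesion adaptor, differed by -0.16 (SE 0.08). Ilk, the integrin-linked kinase, had 0 to 9 counts per library and was not tested. In the annotation 89.7% of its exonic bases are shared with genes on the opposite strand, so its low count need not be its expression.

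For integrin ligands other than laminins, 7 of 30 differences were positive (23.3%, against 49.0% of all genes) and 23 negative (median -0.07). At an unadjusted p under 0.05, 1 was higher (3.33%) and 4 were lower (13.3%), against 3.21% and 4.47% of all genes, and the list was not tested against other genes. Col1a1, fibrillar collagen, was at 215, 169.7 and 202 CPM in wild type and 158, 162 and 167 CPM in SnoN cKO, a difference of -0.27 (SE 0.08) with an unadjusted p of 0.00541 in edgeR. L1cam, the neural adhesion molecule, was at 294, 296 and 305 CPM in wild type and 284, 260.3 and 265 CPM in SnoN cKO, a difference of -0.15 (SE 0.05). Thbs1, thrombospondin-1, was at 24.0, 22.3 and 20.5 CPM in wild type and 13.6, 12.9 and 21.4 CPM in SnoN cKO, a difference of -0.47 (SE 0.17). SnoN cKO 3 overlapped wild type for Thbs1, whereas Col1a1 and L1cam did not overlap, and the adjusted p was 0.637 for all 3 genes. Fn1, fibronectin, was at 319, 311 and 294 CPM in wild type and 223, 287 and 299 CPM in SnoN cKO, with SnoN cKO 1 far below the rest. The other of the 4 lower ligands was Col1a2, with a difference of -0.22 (SE 0.09) and an unadjusted p of 0.0447 in edgeR. Col1a1 and Col1a2 are also among the 14 meningeal and fibroblast markers described with Itga10, so the 2 lists are not independent. The part of those cells in these ligand values was not tested.

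The basement membrane partners of laminins gave 13 positive and 10 negative differences among 23 genes (median 0.04), with 1 higher (4.35%) and 0 lower at an unadjusted p under 0.05, against 3.21% and 4.47% of all genes. Nid1, nidogen-1, which links laminin to collagen IV, was the highest of those named at 516, 539 and 559.9 CPM in wild type and 545, 605 and 535 CPM in SnoN cKO. Col4a1, a collagen IV chain, was at 413, 407 and 409.7 CPM in wild type and 418, 445 and 432 CPM in SnoN cKO. These neighbours of laminin differed by 0.06 (SE 0.06) and 0.07 (SE 0.04). Col18a1, whose C-terminal fragment is endostatin, differed by 0.18 (SE 0.07) with an unadjusted p of 0.0274 and an adjusted p of 0.637 in edgeR. Hspg2, the perlecan gene, and Nid2, nidogen-2, differed by -0.10 (SE 0.06) and -0.13 (SE 0.08). Endothelial markers, beside which Col4a1 and Lama4 are commonly read, summed to 524 to 539 CPM in wild type and 541 to 559.9 CPM in SnoN cKO. The endothelial sums did not overlap, and 7 of 12 markers were positive, beside 49.0% of all genes tested. Among the 5 negative markers, Flt1 differed by -0.17 (SE 0.06). No endothelial marker was at 0 and none passed the adjusted test. The part of endothelial cells in the Col4a1 and Lama4 values was not tested.

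Non-integrin laminin receptors and the enzymes that glycosylate dystroglycan gave 9 positive and 18 negative differences among 27 genes (median -0.02), with 0 higher and 1 lower (3.70%) at an unadjusted p under 0.05, against 3.21% and 4.47% of all genes. Dag1, which encodes dystroglycan, was at 209.5, 219.7 and 218 CPM in wild type and 221, 205 and 208 CPM in SnoN cKO, a difference of -0.03 (SE 0.04). Dtnb and Utrn, of the dystrophin complex that links dystroglycan to the cytoskeleton, differed by -0.14 (SE 0.06) and -0.11 (SE 0.06). Rpsa, the laminin receptor that is also a ribosomal protein, was at 2.26 to 3.87 CPM, and its counts are uncertain because it has many near-identical processed copies in the genome. Tetraspanins and other lateral partners gave 10 positive and 14 negative differences among 24 genes (median -0.01), with 1 higher (4.17%) and 0 lower at an unadjusted p under 0.05, against 3.21% and 4.47% of all genes. Cd9, a tetraspanin that associates with β1 integrins, was at 143, 141 and 147 CPM in wild type and 160.01, 156 and 157 CPM in SnoN cKO. Cd9 did not overlap between the genotypes, and its difference of 0.13 (SE 0.04) had an unadjusted p of 0.0086 and an adjusted p of 0.637 in edgeR. Cd82 and Adam23 differed by -0.27 (SE 0.16) and -0.09 (SE 0.06). Bergmann glia and astrocyte markers, as a list of another cell type, summed to 4385 to 4401 CPM in wild type and 4532 to 4837 CPM in SnoN cKO. These sums did not overlap, and 7 of 11 markers were positive, beside 49.0% of all genes tested. None was at 0 and none passed the adjusted test. Among the 4 negative markers, Slc1a2 differed by -0.16 (SE 0.05) and Gja1 by -0.25 (SE 0.09), so the list did not move as 1. The part of Bergmann glia and astrocytes in the Cd9 values was not tested.

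No single library held the lowest or the highest value of most members, and whether members shared a pattern across libraries was not tested. Of the 35 tested members, 9 were lowest in SnoN cKO 1 and 7 in SnoN cKO 2, while 10 were highest in SnoN cKO 2 and 8 in wild type 1. Each of the 6 libraries held the lowest value of at least 3 members and the highest value of at least 2. For 16 members the coefficient of variation over the 6 libraries was under 1.5 times what counting alone would give, and for 5 it was over 2 times.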

How the data were processed

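Total RNA of whole cerebellum was sequenced as single-end reads from a kit that, per the labels, is NEBNext Ultra, which does not record strand. The authors deposited a single table of unnormalized counts per gene for 6 libraries. The tools named in the submitters' processing notes are featureCounts 1.4.5, Subread and STAR 2.0.4b, and the build named is mm9. The gene annotation is not given in the sources used here. The table's Ensembl identifiers did not match its symbols: of 40254 identifiers found in the reference, 97 had the listed symbol. Olfactory and vomeronasal receptors, which should be silent in cerebellum, had a mean of at least 10 counts in 1 of 1514 entries by symbol and in 490 of 1455 by identifier. Genes were therefore taken by symbol, and no identifier or coordinate is printed.

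Repeats of a symbol with the same counts (140 entries, 0.465% of counts) were kept once. Genes were filtered with filterByExpr by genotype (minimum count 10), scaled by TMM and tested in edgeR 4.0.16 under R 4.3.3 (quasi-likelihood test, two-sided, genotype as the only term), with Benjamini-Hochberg adjustment over 15457 genes and a threshold of 0.05. CPM are counts over the TMM-scaled total of the tested genes. Lengths came from the GENCODE M21 annotation of GRCm38, which is not the authors' build, so length-scaled levels are approximate. DESeq2 1.42.0 and limma 3.58.1 were alternatives. The procedure was tested on simulated counts.

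Groups and replicate numbers came from the labels. Sexes differ within each genotype. The labels give each library its own code, which ends in F or M as the labelled sex does. They do not state that the libraries are separate animals, so p-values measure the spread between these samples only. Named genes were the members (1 of which enters the counts but is not reported here), Skil, the 3 genes of smallest p in each pathway list, and Dag1, Ilk, Ptk2, Tln1, Nid1, Fn1 and Hspg2. The members and lists were chosen with earlier results of these data known. No library pair differed by as little as counting noise (lowest chi-square per degree of freedom 2.67). The other marker lists, for granule neuron precursors (1671 to 1863 CPM in wild type, 1731 to 2045 CPM in SnoN cKO), Purkinje cells (2088 to 2282 and 2183 to 2455), the oligodendrocyte lineage (1586 to 1649 and 1374 to 1633) and pericytes and smooth muscle (337 to 369.9 and 344 to 374), had no gene past the adjusted test.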

Additional observations from a re-analysis of the deposited data

How the results depend on the processing

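No member passed the adjusted threshold under any of the 17 alternatives run. Of 595 recomputed member differences, 585 stayed within 1 SD of the reported value and 10 moved further. That SD is the gene's spread between libraries of the same genotype, not the error of the difference. Leaving out a single library can hardly move a difference that far, so this count does not show that the differences are robust. The sign was the same throughout for 16 members and changed at least once for 19. The number of genes past the threshold, 0 as reported, was 39 with no filter on low counts, 6 with DESeq2, 1 with labelled sex as a covariate and 7 without the pair SnoN cKO 1 and 2. That last setting, and sex read from Xist and Y-linked counts, were added once the data had been seen. The cause of these counts was not tested. It stayed at 0 in the others, including each library left out in turn. At an unadjusted p under 0.05, Itgam missed that bound with DESeq2, without the pair SnoN cKO 1 and 2, and when wild type 1, SnoN cKO 2 or wild type 3 alone was dropped. The count of such members was 1 as reported (7.68% of all genes), 2 with unscaled library totals (Itga3, Itgam; 7.27%), 2 with no filter (Itga10, Itgam; 7.12%), 4 without wild type 3 (Itga10, Itga2b, Itga3, Itga7; 8.81%) and 5 without SnoN cKO 3 (Itga10, Itga2b, Itgam, Itgb4, Itgb5; 9.68%), the percentages being those of all genes in the same setting. Of the 35 members tested there, those 4 and those 5 were larger shares than the percentages beside them.

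With the replicate number as a block (replicate block), 0 genes and 0 members passed, and 786 genes had an unadjusted p under 0.05, against 1187 without it. Deviations of same-numbered libraries correlated at -0.04, -0.32 and -0.18, and 0 of 6 libraries correlated best with its own number. The numbers thus gave no sign of pairing. With 3 libraries per genotype, deviations from their own mean cannot exclude it. Standard errors reached 0.32 among the 14 tested members under 10 CPM and 0.14 among the more abundant ones. The parts of depth and of spread between libraries in these errors were not tested.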
